A study of Mus musculus with 10 samples.

Results

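Il10 and the genes of its receptor chains, Il10ra and Il10rb, are described here in regulatory T cells (Tregs) that lack or carry the transcription factor gene Maf. The 3 genes were chosen by symbol, out of the 27179 genes of the deposited count table, and each passed the filter on low counts that left 13214 genes for testing. Tregs, the Foxp3-expressing subset of CD4 T cells, hold other immune cells in check. Those studied came from C57BL/6 mice, were sorted as CD4+ TCRb+ YFP+ cells and had their RNA sequenced in bulk. In Maf-KO mice (Maf fl/fl x Foxp3Cre-YFP) the Foxp3-driven Cre deletes the floxed Maf gene in Foxp3-expressing cells, and the mice called WT carry Foxp3Cre-YFP without floxed Maf. Both genotypes thus carry the Cre-YFP reporter, and no ages are given. There were 2 Maf-KO gut libraries (replicates 2 and 3), 2 WT gut libraries (replicates 1 and 3), 3 Maf-KO spleen libraries and 3 WT spleen libraries, where gut means colon plus small intestine. The labels do not say that the replicates are separate animals, so p-values measure the spread between these samples, which may be technical.

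IL-10 is a secreted cytokine that dampens the activation of macrophages, dendritic cells and T cells, and mice that lack it develop inflammation of the bowel. It binds IL10RA, the ligand-binding chain, which pairs with IL10RB, a chain that also serves the receptors of IL-22 and of the lambda interferons. The kinases JAK1 and TYK2 sit on the chains and phosphorylate STAT3, whose targets include feedback inhibitors such as SOCS3. Tregs of the gut are a known source of IL-10, and mouse Tregs also respond to it through their own receptor.

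Libraries held 8567035 to 13983965 counts. In gut, Maf itself had 7 and 3 counts in the Maf-KO libraries, against 859 and 918 in the WT libraries, and 2, 10 and 2 counts in Maf-KO spleen, against 337, 312 and 484 in WT spleen. The deletion was thus visible in the RNA of every Maf-KO library. The sort was visible too. Foxp3 averaged 193 CPM (counts scaled to library size with TMM factors) in Maf-KO gut, 181 CPM in WT gut, 119 CPM in Maf-KO spleen and 126 CPM in WT spleen. The 7 T cell and Treg markers summed to 3447 to 9418 CPM over the 10 libraries. None of them was at 0 in any group, which held for the B cell and plasma cell markers too and so does not mark the sort. RNA of other cells was present as well. The summed level of 5 plasma cell markers, mostly Jchain, ranged from 1132 to 3395 CPM in Maf-KO gut and from 2041 to 6408 CPM in WT gut, but from 78.4 to 119 CPM in Maf-KO spleen and from 52.7 to 125 CPM in WT spleen. The 10 markers of macrophages, monocytes, dendritic cells and neutrophils summed to 80.8 to 248 CPM in Maf-KO gut and 88.9 to 187 CPM in WT gut, with S100a8 and S100a9 at 0 in Maf-KO gut. In spleen they summed to 131 to 477 CPM in Maf-KO and 155 to 841 CPM in WT. The 6 B cell markers summed to at most 75.3 CPM in gut and at most 359 CPM in spleen. Markers of CD8 T, NK and innate lymphoid cells summed to 98.9 to 122 CPM in Maf-KO gut and 92.4 to 124 CPM in WT gut, and to 43.5 to 100 CPM in Maf-KO spleen and 58.7 to 75.3 CPM in WT spleen. Over the 10 libraries, markers of stroma and endothelium summed to 44.5 to 191 CPM and those of mast cells to at most 1.96 CPM. In bulk RNA, fewer cells of a type and less RNA per cell cannot be told apart.

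Il10, the ligand gene, was lower in Maf-KO than in WT gut Tregs. The gene (Entrez 16153) is protein-coding and lies on chromosome 1 from 131019845 to 131024970 on the plus strand (GRCm38). No other gene of the GENCODE annotation overlaps it. Il10 reads numbered 1130 and 1599 in the Maf-KO gut libraries, against 4906 and 4694 in the WT gut libraries. At TMM-scaled depth these were 98.3 and 128 CPM in Maf-KO gut and 616 and 555 CPM in WT gut. The higher Maf-KO library was still far below the lower WT library, and the counting intervals of the genotypes did not overlap. The mean was 113 CPM in Maf-KO gut (SD 20.7, n = 2) and 586 CPM in WT gut (SD 43.2, n = 2).

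Il10 fell by 2.37 on the log2 scale in Maf-KO gut, a 5.18-fold lower level, with SE 0.25, a 95% interval of -2.92 to -1.82 and an edgeR adjusted p of 0.00641. In this contrast 20 of 13214 genes were called at an edgeR adjusted p under 0.05, which is 0.151% of them, and 18 of those called were lower in Maf-KO, or 0.136% of all genes. An unadjusted p under 0.05 was reached by 1076 genes. Of the 3 genes Il10 and Il10ra reached it, and only Il10 was called. With 2 libraries a group the call rests on each Maf-KO library. Without Maf-KO gut replicate 2 the change was -2.20 (edgeR adjusted p = 0.0986), and without replicate 3 it was -2.57 (edgeR adjusted p = 0.0574). The 5 pancreatic acinar markers summed to 1.30 to 2.23 CPM in Maf-KO gut, with 4 of the 5 at 0, and to 17.3 to 94.7 CPM in WT gut. They did not overlap between genotypes either, and their part in the result was not tested. The sums of plasma cell markers and of macrophage, monocyte, dendritic cell and neutrophil markers given above overlapped between the genotypes in gut.

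Scaled per length, Il10 was among the abundant transcripts of gut Tregs in both genotypes. Among the 12252 genes of the deposited log2 FPKM values (reads scaled to gene length and library total), Il10 stood at rank 1199 and rank 908 in the Maf-KO gut libraries, against rank 112 and rank 128 in the WT gut libraries. It was at 70.3 and 90.4 FPKM in Maf-KO gut and at 456 and 392 FPKM in WT gut. Of the 20 T cell and IL-10 family cytokine genes considered, 11 are in those values, and Il10 was the first of the 11 in each of the 4 gut libraries. Ifng, which encodes interferon gamma, was second in all 4. The step between them was smaller in Maf-KO gut, where Il10 was at 6.13 and 6.50 and Ifng at 5.68 and 5.91 on the log2 FPKM scale, than in WT gut, where Il10 was at 8.83 and 8.61 and Ifng at 5.15 and 5.51. Ifng itself was not called in gut (log2 fold change 0.48, SE 0.39, edgeR adjusted p = 0.810).

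**Figure D1:**
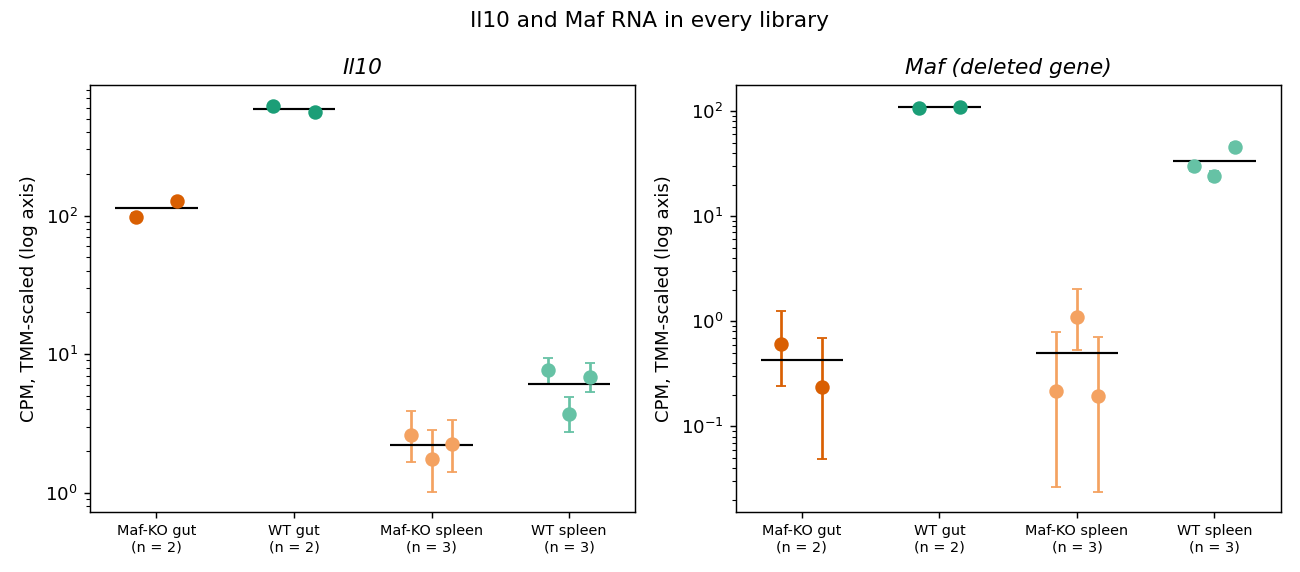
Il10 (left) and Maf (right) in every library, in TMM-scaled CPM on a log axis, for Maf-KO gut, WT gut, Maf-KO spleen and WT spleen. Points are libraries with 95% counting intervals and black lines are group means; the Maf-KO gut points of Il10 lie at 98.3 and 128 CPM, below both WT gut points and above every spleen point.

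In the spleen Il10 was a rare transcript. It had 24, 16 and 23 counts in the Maf-KO spleen libraries and 86, 48 and 72 counts in the WT spleen libraries, or 2.60, 1.76 and 2.24 CPM in Maf-KO and 7.64, 3.69 and 6.83 CPM in WT. Every Maf-KO library was below every WT library, with WT replicate 2 nearest to the Maf-KO libraries. Its counting interval of 2.72 to 4.90 CPM overlapped the 1.67 to 3.87 CPM of Maf-KO replicate 1. Counting intervals cover counting error only. The mean was 2.20 CPM in Maf-KO spleen (SD 0.42, n = 3) and 6.06 CPM in WT spleen (SD 2.09, n = 3).

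The spleen change was -1.44 on the log2 scale (SE 0.30, 95% interval -2.10 to -0.78), a 2.71-fold lower level in Maf-KO, and it was not called (edgeR adjusted p = 0.578). None of the 3 genes was called in this contrast, where 2 of 13214 genes were, 0.0151% of them, and 376 had an unadjusted p under 0.05. The call depended on the setting. Il10 passed in edgeR without the filter on low counts (adjusted p = 0.0420), in DESeq2 both without that filter (adjusted p = 0.00114) and with it (adjusted p = 0.00113), and in edgeR without WT spleen replicate 2 (adjusted p = 0.0311). Over all alternatives the adjusted p ranged from 0.00113 to 1. The direction was the same in all 20 alternatives, with log2 fold changes of -1.71 to -1.23.

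Whether the genotype effect on Il10 differs between tissues was tested by the difference of the log2 fold changes, gut minus spleen. That difference was -0.93 (SE 0.39, 95% interval -1.80 to -0.06), a larger fold reduction in gut, and it did not pass (edgeR adjusted p = 0.9999). No gene was called in this test by edgeR (0% of 13214, 422 at an unadjusted p under 0.05), none by limma-voom (391 at an unadjusted p under 0.05) and 8 by DESeq2. A difference between the tissues in the size of the Il10 change was thus not resolved with these libraries.

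Il10 differed far more between tissues than between genotypes. It was 98.3 and 128 CPM in Maf-KO gut against 1.76 to 2.60 CPM in Maf-KO spleen, and 616 and 555 CPM in WT gut against 3.69 to 7.64 CPM in WT spleen. The tissues did not overlap in either genotype. Il10 was higher in gut by 5.67 on the log2 scale in Maf-KO Tregs (SE 0.28, 95% interval 5.05 to 6.29, edgeR adjusted p = 9.83e-07) and by 6.61 in WT Tregs (SE 0.26, 95% interval 6.02 to 7.19, edgeR adjusted p = 2.55e-07), or 51.0-fold and 97.4-fold. These contrasts called 28.5% of all genes in Maf-KO (14.4% higher and 14.1% lower in gut) and 28% in WT (14.7% higher and 13.3% lower), so a call between the tissues was common. There were 4 pairs of gut and spleen libraries with the same number in their titles. Within those pairs the gut-minus-spleen difference of Il10 in log2 CPM was 5.66 and 5.72 in Maf-KO and 6.30 and 6.31 in WT. Gut and spleen libraries also differed in the plasma cell sums given above, in B cell markers and in gut epithelial markers. The 6 epithelial markers, mostly Epcam, summed to 143 to 156 CPM in Maf-KO gut and 135 to 175 CPM in WT gut. In spleen they summed to 32.2 to 68.5 CPM in Maf-KO and 36.4 to 60.0 CPM in WT. Single markers of other lists differed too. Kit, in the list of CD8 T, NK and innate lymphoid cells, was at 65.7 and 90.2 CPM in Maf-KO gut against 3.21 to 5.75 CPM in Maf-KO spleen, and at 104 and 62.3 CPM in WT gut against 3.16 to 4.62 CPM in WT spleen. It was the only gene of that list called higher in gut. Cd8b1 and Klrd1 of the same list were called lower in gut, by 1.19 and 2.23 in Maf-KO and by 1.76 and 2.41 in WT on the log2 scale. The list of stroma and endothelium was mixed. Col3a1 and Dcn were called higher in gut and Pecam1 lower in both genotypes, and Vwf lower in WT alone. In the list of macrophages, monocytes, dendritic cells and neutrophils, S100a8 and S100a9 were called lower in gut in both genotypes. Cd14 of that list was called higher in Maf-KO alone. Of the acinar markers, 4 of 5 were called higher in WT gut than in WT spleen. The part of all these markers in the tissue difference was not tested.

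Ordered from the lowest level, Il10 went through Maf-KO spleen, WT spleen, Maf-KO gut and WT gut. Neighbouring groups in that order did not overlap in any library. Counting intervals overlapped at the first step, between Maf-KO spleen and WT spleen, and at no other.

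Il10ra, which encodes the ligand-binding chain, varied widely between libraries of a group. The gene (Entrez 16154) lies on chromosome 9 from 45253837 to 45269149 on the minus strand (GRCm38). Gm20612 and Mir7086 lie within its span without sharing an exon with it. Il10ra was at 139 and 196 CPM in Maf-KO gut and at 242 and 332 CPM in WT gut. Both Maf-KO gut libraries were below both WT gut libraries. In spleen it was at 152, 120 and 222 CPM in Maf-KO and at 193, 166 and 268 CPM in WT, and there the genotypes overlapped.

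Il10ra did not pass in either tissue. Its mean was 167 CPM in Maf-KO gut (SD 39.9, n = 2) and 287 CPM in WT gut (SD 63.6, n = 2), a log2 fold change of -0.78 (SE 0.31, 95% interval -1.47 to -0.08, edgeR adjusted p = 0.578). In spleen the mean was 165 CPM in Maf-KO (SD 52.0, n = 3) and 209 CPM in WT (SD 52.6, n = 3), a log2 fold change of -0.34 (SE 0.25, 95% interval -0.91 to 0.22, edgeR adjusted p = 0.999). The intervals allow a reduction of more than 2-fold in gut as well as hardly any. Leaving out 1 library moved the spleen value between -0.62 and -0.12. The difference of these effects between tissues was -0.43 (SE 0.40, 95% interval -1.33 to 0.46, edgeR adjusted p = 0.9999), and it ranged from -0.69 to -0.16 with 1 library left out.

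Between gut and spleen Il10ra was not called in either genotype. The log2 fold change was 0.02 in Maf-KO (SE 0.28, 95% interval -0.61 to 0.66, edgeR adjusted p = 0.968), and its sign turned with the scaling and with the libraries included. In WT it was 0.46 (SE 0.28, 95% interval -0.17 to 1.08, edgeR adjusted p = 0.262). The spread among libraries followed the numbers in the titles. Of the Maf-KO libraries with matching numbers, replicate 2 was the lower in both gut (139 CPM) and spleen (120 CPM), and replicate 3 the higher in both (196 and 222 CPM). In WT, replicate 1 was the lower in both gut (242 CPM) and spleen (193 CPM), and replicate 3 the higher in both (332 and 268 CPM). Within the 4 pairs the gut-minus-spleen difference was 0.21 and -0.18 log2 CPM in Maf-KO and 0.32 and 0.31 log2 CPM in WT.

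Il10rb, which encodes the shared second chain, was the steadiest of the 3. The gene (Entrez 16155) lies on chromosome 16 from 91406157 to 91425834 on the plus strand (GRCm38). Gm21970, a gene model on the same strand, shares exonic sequence with it, and the sources used here do not say how such reads were assigned, so the Il10rb counts are uncertain to that extent. Il10rb was at 120 and 111 CPM in Maf-KO gut and at 115 and 131 CPM in WT gut, and the genotypes overlapped. It was at 133, 149 and 150 CPM in Maf-KO spleen and at 140, 166 and 147 CPM in WT spleen, again with overlap. The log2 fold change of Maf-KO against WT was -0.09 in gut (SE 0.13, 95% interval -0.38 to 0.19, edgeR adjusted p = 0.910) and -0.07 in spleen (SE 0.10, 95% interval -0.30 to 0.16, edgeR adjusted p = 0.999). A reduction beyond -0.38 on the log2 scale in gut or -0.30 in spleen lies outside these intervals.

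Every gut library had less Il10rb than every spleen library, though the margin was thin, with 131 CPM in the highest gut library and 133 CPM in the lowest spleen library. The log2 fold change of gut against spleen was -0.32 in Maf-KO (SE 0.12, 95% interval -0.58 to -0.06, edgeR adjusted p = 0.0658) and -0.30 in WT (SE 0.12, 95% interval -0.56 to -0.04, edgeR adjusted p = 0.0852), just outside the threshold. Pairing the libraries by title number as a random effect (limma-voom) gave -0.35 in Maf-KO (adjusted p = 0.00831) and -0.26 in WT (adjusted p = 0.0370), both called. With title number as a fixed block in edgeR the Maf-KO value was -0.37 (adjusted p = 0.00733) and the WT value -0.22 (adjusted p = 0.140). Within the pairs, gut was lower in 4 of 4, by 0.31 and 0.43 log2 CPM in Maf-KO and by 0.28 and 0.16 log2 CPM in WT. Without TMM factors the values were -0.58 in Maf-KO and -0.56 in WT, and the median of all genes was then at -0.28 in Maf-KO and -0.30 in WT.

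**Figure D2:**
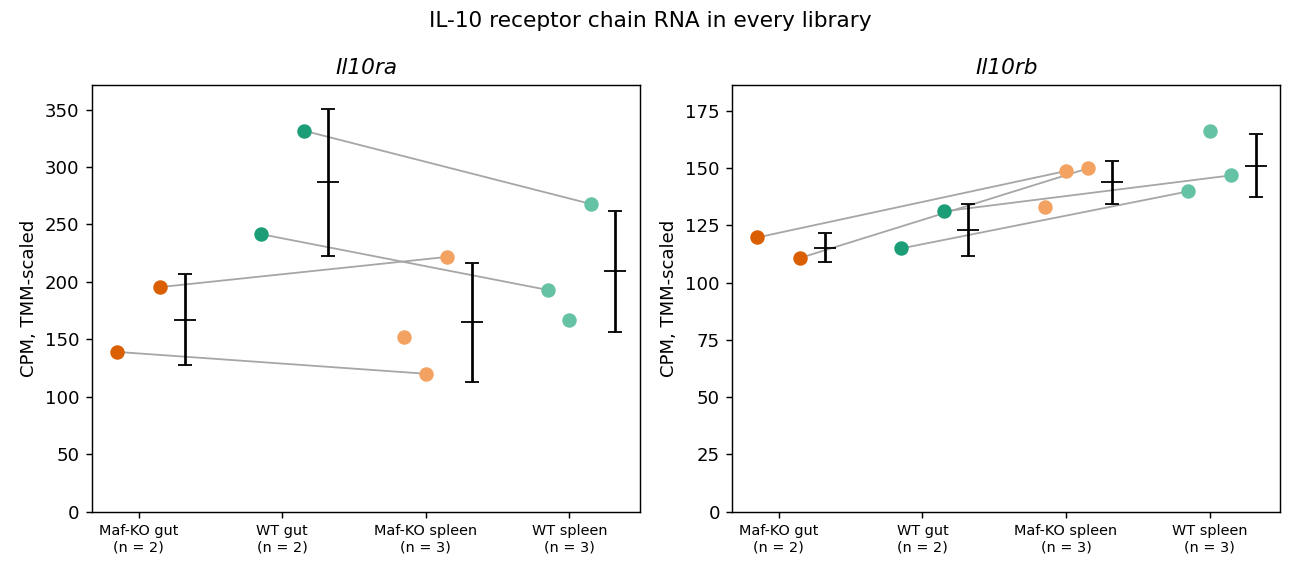
Il10ra (left) and Il10rb (right) in every library, in TMM-scaled CPM from 0, for Maf-KO gut, WT gut, Maf-KO spleen and WT spleen. Points are libraries, black bars are mean ± SD and grey lines join gut and spleen libraries with the same title number; Il10ra spreads from 120 to 332 CPM, while Il10rb spans 111 to 166 CPM with every gut point below every spleen point.

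**Figure D3:**
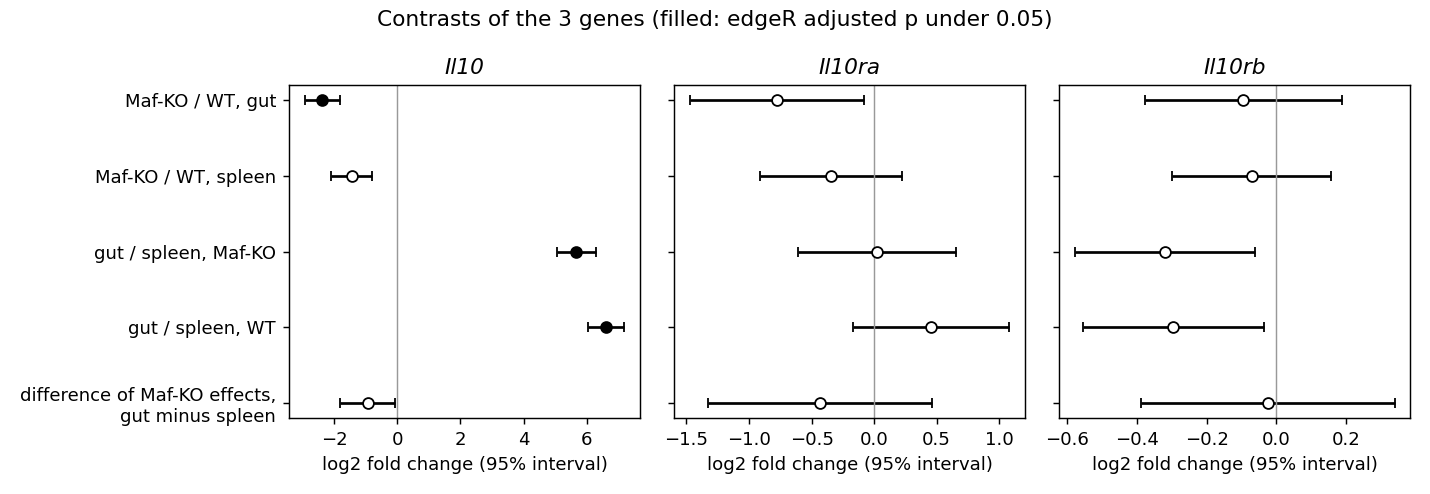
Log2 fold changes of Il10, Il10ra and Il10rb in the 5 contrasts, with 95% intervals; filled points have an edgeR adjusted p under 0.05. Il10 is called in gut between genotypes and in both tissue contrasts, at -2.37, 5.67 and 6.61, and neither receptor gene is called in any.

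Ligand and receptor RNA can be set against each other within a library on the per-length FPKM scale. The ratio of Il10 to Il10ra was 1.89 and 1.75 in Maf-KO gut and 6.82 and 4.48 in WT gut. In spleen it was 0.0461, 0.0397 and 0.0273 in Maf-KO and 0.106, 0.0597 and 0.0684 in WT. Ligand RNA thus exceeded Il10ra RNA per length in all 4 gut libraries and in none of the 6 spleen libraries, and the Maf-KO ratios lay below the WT ratios of the same tissue without overlap. No test was made on these ratios.

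Between the receptor chains, the ratio of Il10ra to Il10rb on the FPKM scale was 0.615 and 0.934 in Maf-KO gut and 1.11 and 1.34 in WT gut. It was 0.607, 0.428 and 0.784 in Maf-KO spleen and 0.731, 0.530 and 0.966 in WT spleen. Only the 2 WT gut libraries had more Il10ra than Il10rb RNA per length. In spleen the genotypes overlapped.

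**Figure D4:**
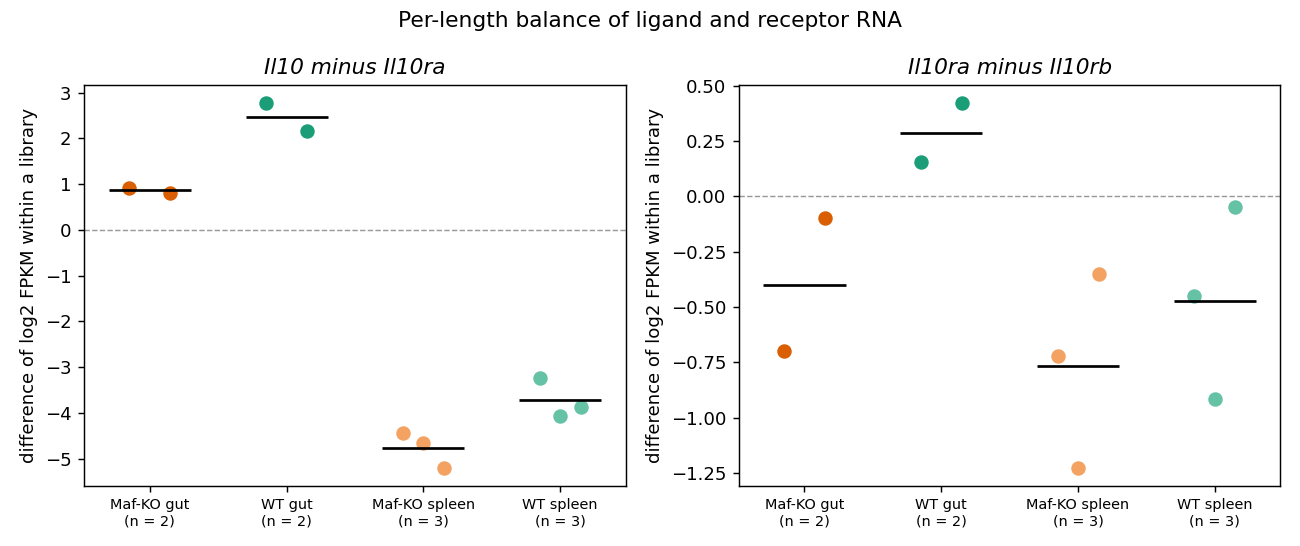
Differences of log2 FPKM within a library, Il10 minus Il10ra and Il10ra minus Il10rb, for Maf-KO gut, WT gut, Maf-KO spleen and WT spleen; the dashed line at 0 marks equal RNA per length. Points are libraries; all 4 gut points of the first panel lie above the line and all 6 spleen points below it, and in the second panel only the WT gut points lie above it.

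Other genes of the IL-10 family were described from a list of ligands, receptor chains, signal transducers and target or feedback genes, 34 in all, of which 25 were tested. Between genotypes, 0 of the 25 were higher in gut and 1 was lower, Il10 itself, and in spleen 0 were higher and 0 lower by edgeR. Between tissues, 10 were higher and 1 lower in gut than in spleen in Maf-KO (44% of the 25, beside 28.5% of all genes), and 6 were higher and 1 lower in WT (28%, beside 28% of all genes). Il22, among the higher genes in both genotypes, had so few spleen counts that it could pass the filter on low counts only through gut.

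Il22, the ligand gene that shares Il10rb with Il10 and whose product acts on epithelial cells, had 160 and 296 counts in Maf-KO gut and 115 and 71 counts in WT gut, or 13.9 and 23.6 CPM in Maf-KO and 14.4 and 8.40 CPM in WT. At scaled depth the genotypes overlapped, and the log2 fold change of 0.72 (SE 0.44) was not called (edgeR adjusted p = 0.738). In spleen Il22 had 0 counts in all 3 Maf-KO libraries and 1, 0 and 0 counts in WT. Gut was at least 181-fold higher in Maf-KO, against a floor of 3 counts over the spleen group, and 394-fold higher in WT (95% counting interval 69.9 to 15650). The other 5 ligand genes, Il19, Il20, Il24, Ifnl2 and Ifnl3, had between 0 and 3 counts over all 10 libraries and were not tested.

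Among the 11 chains of the class II cytokine receptor family, 7 were tested. None was called between genotypes in gut or spleen, and the median log2 fold change was -0.09 in gut and -0.07 in spleen, beside -0.0035 and -0.0064 over all genes tested. Between tissues 1 was higher and 1 lower in each genotype, beside 28.5% of all genes called in Maf-KO and 28% in WT, a share near that background. Ifngr1, the ligand-binding chain of the interferon gamma receptor, was higher in gut by 2.19 (SE 0.33, edgeR adjusted p = 0.00100) in Maf-KO and by 1.96 (SE 0.33, edgeR adjusted p = 0.00184) in WT. Ifnar2, a chain of the type I interferon receptor and a neighbour of Il10rb on chromosome 16, was lower by 0.74 (SE 0.12, edgeR adjusted p = 0.00147) in Maf-KO and by 0.71 (SE 0.12, edgeR adjusted p = 0.00192) in WT. The chains that pair with Il10rb for IL-22 and the lambda interferons were scarce. Il22ra1 had 0 counts over the 10 libraries and Ifnlr1 had 15.

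All 4 genes of the transducers were tested, and none was called between genotypes in either tissue. Their median log2 fold change was 0.09 in gut and 0.03 in spleen. Stat3, the main transcription factor downstream of the receptor, was at 816 and 821 CPM in Maf-KO gut, against 539 and 680 CPM in WT gut. The genotypes did not overlap, and the log2 fold change of 0.42 (SE 0.23) was not called (edgeR adjusted p = 0.693). Stat3 was higher in gut than in spleen in Maf-KO by 0.65 (SE 0.21, edgeR adjusted p = 0.0422). In WT the value was 0.28 (SE 0.21, edgeR adjusted p = 0.356), and the difference between the genotypes in this respect was 0.37 (SE 0.30, edgeR adjusted p = 0.9999). Jak1, the kinase on IL10RA, and Tyk2, the kinase on IL10RB, had log2 fold changes between genotypes of 0.17 and -0.09 in gut and 0.03 and -0.05 in spleen.

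Of the 12 target and feedback genes, whose response to IL-10 is known mainly from mouse macrophages, 0 were called between genotypes in gut and 0 in spleen by edgeR, while 2 and 3 had an unadjusted p under 0.05, beside 1076 and 376 of all 13214 genes. The median log2 fold change was -0.02 in gut and -0.30 in spleen, beside -0.0035 and -0.0064 over all genes. Socs3, the feedback inhibitor of cytokine receptors, was at 68.4, 62.1 and 80.2 CPM in Maf-KO spleen and at 95.8, 109 and 182 CPM in WT spleen. Every Maf-KO library was below every WT library. WT replicate 3, the highest, also had the highest sum of macrophage, monocyte, dendritic cell and neutrophil markers in spleen, 841 CPM. Maf-KO replicate 2 had the next highest sum in spleen, 477 CPM, and the lowest Socs3 there. The part of these markers in the result was not tested. The log2 fold change of -0.87 (SE 0.23) was not called (edgeR adjusted p = 0.999). In gut Socs3 was at 93.7 and 130 CPM in Maf-KO and at 127 and 118 CPM in WT, and the genotypes overlapped. Ddit4, an inhibitor of mTORC1 signalling, had a log2 fold change of -1.34 in gut (SE 0.56, edgeR adjusted p = 0.591) and of -1.07 in spleen (SE 0.44, edgeR adjusted p = 0.999).

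Between tissues, 6 of the 12 were higher in gut in Maf-KO and 3 in WT, and none was lower in either, beside 14.4% of all genes higher in Maf-KO and 14.7% in WT. The median log2 fold change was 0.75 in Maf-KO and 0.18 in WT, beside -0.020 and -0.032 over all genes. Nfil3, a bZIP repressor, was higher by 3.88 in Maf-KO (SE 0.38, edgeR adjusted p = 8.18e-05) and by 4.17 in WT (SE 0.39, edgeR adjusted p = 4.92e-05). Etv3, an ETS-family repressor, was higher by 1.21 in Maf-KO and 1.05 in WT, and Zfp36, whose product destabilises cytokine mRNAs, by 1.44 in Maf-KO and 1.54 in WT. Bcl3, Il4ra and Tnip3 were called in Maf-KO alone, at 0.93, 0.83 and 1.44, and their WT values were 0.43, 0.33 and 1.05; no gene was called in the test of the difference.

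Factors and signals linked to Il10 in T cells, not all of which raise it, were examined next. Of 18 transcription factor genes 17 were tested, and only Maf, the deleted gene, was called between genotypes in gut and in spleen. Ahr, the aryl hydrocarbon receptor, was at 324 and 282 CPM in Maf-KO gut and at 289 and 342 CPM in WT gut, overlapping. Prdm1, which encodes BLIMP-1, averaged 300.2 CPM in Maf-KO gut (SD 37.2, n = 2) and 347 CPM in WT gut (SD 44.8, n = 2), with a log2 fold change of -0.21 (SE 0.41, edgeR adjusted p = 0.943); it was picked after its values were seen. The median over the 17 was -0.09 in gut and 0.09 in spleen.

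Between tissues the same list moved widely. In Maf-KO 10 were higher and 2 lower in gut, and in WT 11 were higher and 1 lower, beside 28.5% of all genes called in Maf-KO and 28% in WT, with medians of 1.22 and 1.70 beside -0.020 and -0.032 over all genes. Bhlhe40, a basic helix-loop-helix repressor that restrains Il10 in mouse T cells, was higher in gut by 4.70 in both genotypes (SE 0.39 in each; edgeR adjusted p = 2.66e-05 in Maf-KO and 2.55e-05 in WT). Ahr was higher by 1.78 in Maf-KO (SE 0.14, edgeR adjusted p = 1.83e-05) and by 1.99 in WT (SE 0.14, edgeR adjusted p = 8.27e-06). Junb, an AP-1 factor, was higher by 3.30 in Maf-KO, and Gata3 and Irf4, factors of Treg activation in tissues, by 2.22 and 2.02 in WT. Each was higher in gut in the other genotype too. Junb was at 7568 and 7779 CPM in WT gut against 726 to 1636 CPM in WT spleen. In Maf-KO, Gata3 was at 916.3 and 869.5 CPM in gut against 275.8 to 366.5 CPM in spleen. Irf4 was at 179.7 and 187.8 CPM in Maf-KO gut against 51.2 to 71.8 CPM in Maf-KO spleen. Maf itself was higher in gut than in spleen by 1.70 in WT (SE 0.33, edgeR adjusted p = 0.00388).

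Receptors for cytokines that induce Il10 numbered 9, all tested, and none was called between genotypes in either tissue. Il21r, the receptor of IL-21, was at 1096 and 1139 CPM in Maf-KO gut, against 632 and 567 CPM in WT gut. The genotypes did not overlap, and the log2 fold change of 0.90 (SE 0.16) was not called (edgeR adjusted p = 0.111). Il12rb2, a chain of the IL-12 receptor, was at 4.26 and 4.71 CPM in Maf-KO gut, against 22.1 and 13.7 CPM in WT gut, a log2 fold change of -1.99 (SE 0.39) that was not called (edgeR adjusted p = 0.126). Between tissues 3 were higher and 1 lower in gut in Maf-KO, and 4 higher and 3 lower in WT, beside 28.5% of all genes called in Maf-KO and 28% in WT. The median log2 fold change was 0.08 in Maf-KO and 0.25 in WT. Il6ra, the ligand-binding chain of the IL-6 receptor, was lower in gut by 3.33 in Maf-KO (SE 0.32, edgeR adjusted p = 7.40e-05) and by 3.63 in WT (SE 0.34, edgeR adjusted p = 4.95e-05).

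Surface genes of IL-10-producing T cells and other suppressive Treg genes were set beside Il10. None of the 9 surface genes and none of the 10 suppressive genes was called between genotypes in gut or spleen by edgeR. In gut 1 of the 9 and 2 of the 10 had an unadjusted p under 0.05, and in spleen 1 and 3, beside 1076 of 13214 genes in gut and 376 in spleen. The medians were -0.08 and 0.04 in gut and -0.04 and 0.0093 in spleen. Pdcd1, which encodes the inhibitory receptor PD-1, had a log2 fold change in gut of -0.99 (SE 0.57, edgeR adjusted p = 0.705). Areg, which encodes the repair factor amphiregulin, was at 371.1 and 342.8 CPM in Maf-KO gut and at 633 and 602 CPM in WT gut, without overlap, with a log2 fold change of -0.79 (SE 0.22, edgeR adjusted p = 0.339).

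Between tissues these lists were mostly higher in gut, like Il10. In Maf-KO 5 of 9 surface genes and 6 of 10 suppressive genes were higher and none lower, and in WT 6 and 6 were higher and none lower, beside 14.4% of all genes higher in Maf-KO and 14.7% in WT. The median log2 fold change was 1.40 in Maf-KO and 1.73 in WT for the surface genes, and 0.54 in Maf-KO and 0.77 in WT for the suppressive genes. Areg was higher by 6.63 in Maf-KO (SE 0.25, edgeR adjusted p = 2.09e-07) and by 6.64 in WT (SE 0.24, edgeR adjusted p = 1.78e-07). Gzmb, which encodes the protease granzyme B, was higher by 6.92 in Maf-KO and by 6.12 in WT, and Ctla4, the inhibitory receptor gene, which is in both lists, by 4.09 in Maf-KO and 3.71 in WT.

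Of 13 other T cell cytokine genes 8 were tested, and 0 were called between genotypes in gut and 0 in spleen by edgeR (1 and 2 at an unadjusted p under 0.05). Their median log2 fold change was -0.75 in gut. In spleen it was -0.16 as fitted and -0.36 with low-count genes at their bounds. Lif, a cytokine of the IL-6 family, had a log2 fold change in gut of -1.52 (SE 0.49, edgeR adjusted p = 0.450). Between tissues 4 were higher in gut in Maf-KO and 5 in WT, and none was lower, beside 14.4% of all genes higher in Maf-KO and 14.7% in WT. The median was 2.33 in Maf-KO and 2.15 in WT. Il17a, Il17f and Csf2 held 0 to 3 counts in each spleen library, so they could pass the filter on low counts only through gut. Their calls, and their part in these medians, follow partly from that filter. Ifng was higher by 2.82 in Maf-KO (SE 0.37, edgeR adjusted p = 0.000435) and by 2.16 in WT (SE 0.36, edgeR adjusted p = 0.00187). Il17a, the signature cytokine gene of Th17 cells, had 0 counts in all 6 spleen libraries and was at least 75.3-fold higher in gut in Maf-KO and at least 64.3-fold higher in WT, against a floor of 3 counts over the spleen group.

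**Figure D5:**
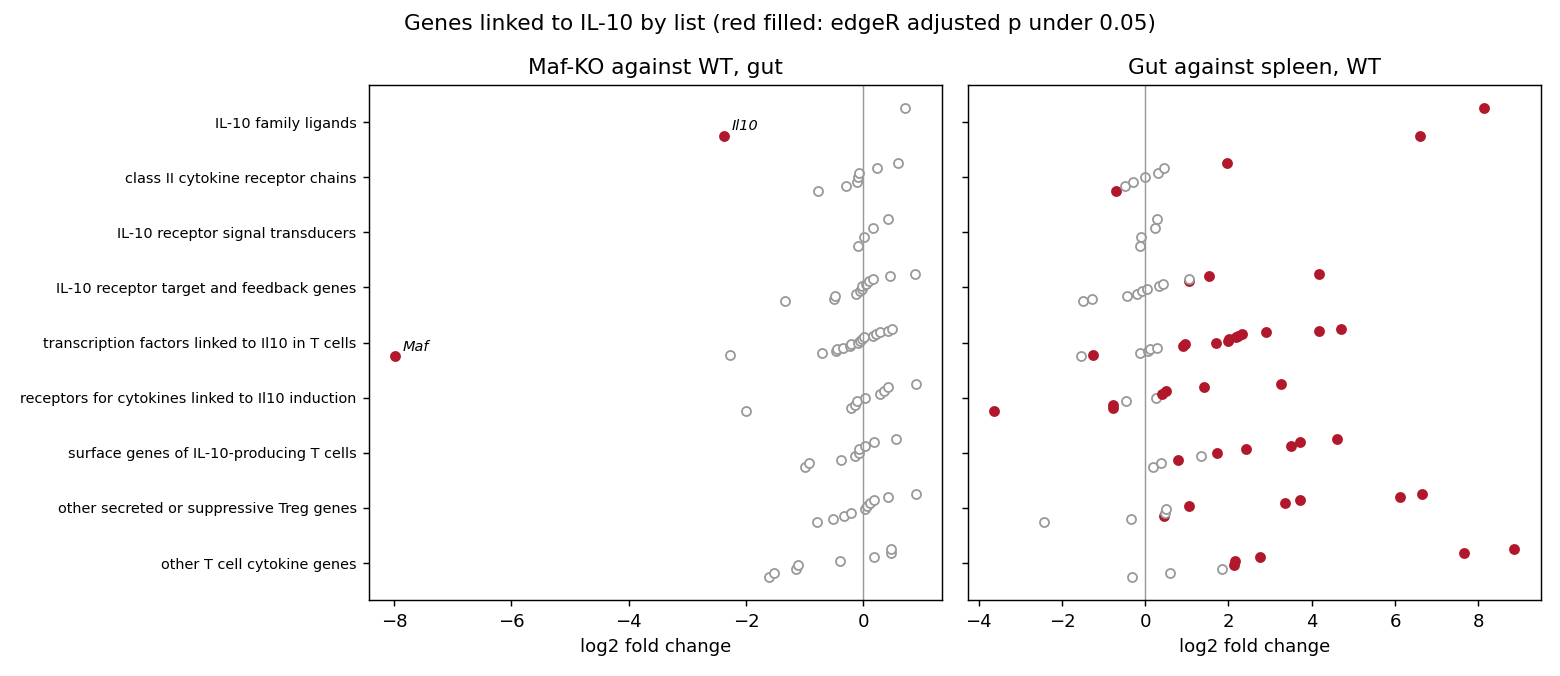
Fitted log2 fold changes of the tested genes of each list, for Maf-KO against WT in gut (left) and gut against spleen in WT (right). Red filled points have an edgeR adjusted p under 0.05. Between genotypes in gut the red points are Il10 and Maf, while between tissues in WT most lists hold several. Fitted values of genes with 0 or 1 spleen counts, such as Il22, Il17a and Il17f, depend on the prior count and are no bounds.

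Genes next to each of the 3 on its chromosome were looked up, up to 5 on each side within 250 kb. Around Il10, 4 of 10 neighbours were tested, Fcmr, Mapkapk2, Dyrk3 and Eif2d, and none was called between genotypes in either tissue. Mapkapk2, which encodes a stress kinase and starts 33.9 kb from Il10, had a log2 fold change between genotypes in gut of 0.40 (edgeR adjusted p = 0.647). Between tissues 3 of the 4 were called in each genotype. Fcmr, which encodes an IgM receptor of B cells, was lower in gut by 3.84 in Maf-KO and by 3.43 in WT, while Mapkapk2 was higher by 0.95 in Maf-KO and 0.78 in WT. The kinase gene Dyrk3 was higher by 2.48 in Maf-KO and 2.44 in WT. The direct neighbours Il19, Il20 and Il24, which belong to the same cytokine family, had 3, 0 and 1 counts over the 10 libraries. Of 3 tested neighbours of Il10ra and 3 of Il10rb, none was called between genotypes. Between tissues Tmprss13 near Il10ra was called in both genotypes, BC049352 near Il10ra in Maf-KO alone, and Ifnar2 near Il10rb in both.

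The genes whose pattern over the 10 libraries was most like that of Il10 were ranked by the root mean square difference of centred log2 CPM, where a smaller value is more alike. Areg was nearest at 0.69, and others named here were Nckap5 at 0.77, Rbm24 at 0.83, Ccr9 at 0.88, Ccl20 at 0.94, Fosl2 at 0.95 and Lilr4b at 0.97, beside a median of 3.16 over all genes compared. All of these averaged more in gut than in spleen in both genotypes. Ranking by the Il10 pattern, which is mainly gut against spleen, selects for this, so it is no separate result. Nckap5, Rbm24 and Ccl20 averaged at most 0.553 CPM in either spleen group. They could pass the filter on low counts only through gut, and their distances depend partly on the prior count. Of the genes named for Il10, only Ccl20, which encodes the ligand of CCR6, was also called between genotypes in gut, with 4.02 CPM in Maf-KO gut and 129 CPM in WT gut on average (log2 fold change -5.01, edgeR adjusted p = 0.00473). For Il10ra the nearest were Slc17a5 at 0.21, Ccpg1os at 0.21 and Zfr2 at 0.22, beside a median of 0.53. For Il10rb they were Trim33 at 0.072, Kpnb1 at 0.072 and Psmf1 at 0.077, beside a median of 0.34. Flat genes resemble any flat gene, so the small values for the receptor genes describe a narrow range.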

How the data were processed

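RNA of sorted Tregs was sequenced with an RNeasy Plus and TruSeq RNA workflow, per the labels' protocols. The authors deposited raw read counts per Entrez gene, not normalised, and log2 FPKM values of 12252 genes. Subread, featureCounts and limma, with the builds GRCm38 and mm10, are listed in the submitters' processing notes; the sources used here give no versions, annotation release or strand setting. Each of the 10 log2 columns matched its own count column best. Total counts were 8567035 to 13983965. The 852 entries that lack a symbol held 0.173 to 0.203% of counts and stayed in totals and tests. Replicates of a group differed by more than sampling noise (chi-square over its degrees of freedom 13.9 to 32.6).

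The counts went through edgeR 4.0.16 in R 4.3.3, with filterByExpr, TMM factors of 0.887 to 1.12 and a single quasi-likelihood fit of the 4 groups over all 10 libraries. Contrasts were tested two-sided and adjusted by Benjamini-Hochberg over all 13214 genes, with calls made at an adjusted p under 0.05. The SE is the size of the log2 fold change divided by the square root of F. Counting intervals and floors of 3 counts cover counting error only. Alternatives were DESeq2 size factors, no filter, DESeq2 1.42.0 (on all genes with counts), limma-voom and limma-trend (limma 3.58.1), the groups compared alone, blocks by replicate or title number and leaving out each library. Library totals without TMM factors and DESeq2 on the filtered genes were chosen after seeing the data.

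Title numbers link 4 gut and spleen pairs. Deviations from the group means correlated by 0.255 to 0.382 within these pairs, above 0.1 in all 4. They were therefore treated as pairs in the title-number blocks and the within-pair differences, although the labels do not say what the number marks. The main edgeR fit holds no pairing term, so its gut against spleen tests are unpaired. Libraries with unlike title numbers reached 0.26 (Maf-KO spleen replicate 2 with WT spleen replicate 3), so such values alone do not establish pairs. With 2 gut libraries a group, gut deviations mirror each other, so the 2 pair values of a genotype are not independent.

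The 3 genes and all lists were chosen with earlier results of these data known. Lists name up to 4 called genes by adjusted p, or up to 2 by unadjusted p where none is called; 1 gene that the rules name is not reported here. Bcl3, Tnip3, Jak1, Tyk2, Prdm1, Ifng in gut, Il22 in gut and the untested family genes were named after their values were seen. Positions are from RefSeq annotation of GRCm38, while strands, overlapping genes and shared exons are from GENCODE annotation of the same build.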

Additional observations from a re-analysis of the deposited data

How the results depend on the processing

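Il10 in gut kept its direction under all 20 alternatives and its call under 18, with log2 fold changes of -2.57 to -2.01 and adjusted p of 9.21e-18 to 0.0986. It lost the call without Maf-KO gut replicate 2 or 3, and leaving out 1 library gave -2.57 to -2.20. In spleen Il10 was called without the filter (-1.45), with DESeq2 (-1.44 both without the filter and with it) and without WT spleen replicate 2, and leaving out 1 library gave -1.71 to -1.23; the cause was not tested. Il10 between tissues kept direction and call under all 21 alternatives in each genotype. Il10ra between tissues in Maf-KO turned to -0.24 with library totals and -0.20 with log2 FPKM, and ranged from -0.24 to 0.30 with 1 library left out; it was called under none of these. Il10rb between tissues was called with library totals (-0.58 in Maf-KO, -0.56 in WT) and log2 FPKM (-0.56 in Maf-KO, -0.54 in WT), where the median of all genes lay at -0.28 and -0.27 in Maf-KO and at -0.30 and -0.29 in WT. It was also called with the title-number block as a random effect (-0.35 in Maf-KO, -0.26 in WT), and in Maf-KO with title number fixed (-0.37) and with the replicate block (-0.38). Leaving out 1 library gave -0.18 to 0.0073 for Il10rb between genotypes in gut, -0.12 to 0.0045 in spleen and -0.11 to 0.079 for its difference, which was 0.00092 without the filter.

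The count of called genes depended more on the setting. In gut, 20 became 74 without the filter, 107 with DESeq2 without the filter and 112 with DESeq2 with it, 33 with limma-voom, 12 with the groups alone, 9 with the replicate block, 42 with the title-number block and 4 to 22 with 1 library left out. In spleen, 2 became 12 without the filter, 18 with DESeq2 without or with the filter, 5 with log2 FPKM, 1 with the groups alone and 2 to 9 with 1 library left out, while limma-voom called 0 (321 at an unadjusted p under 0.05) and its title-number block 0 (308). Between tissues, 3772 in Maf-KO became 5777 with the title-number block as a random effect and 2118 to 3784 with 1 library left out, and 3703 in WT became 2183 to 3597. Library totals moved the higher calls to 1243 of 4944 in Maf-KO, where 1904 of 3772 were higher with TMM, and to 1328 of 5269 in WT, where 1942 of 3703 were. With log2 FPKM they were 1082 of 4524 in Maf-KO and 1163 of 4861 in WT. For the difference between tissues DESeq2 called 8 without and 8 with the filter.

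Same replicate numbers across genotypes did not pair libraries, with correlations of deviations from -0.347 to 0.0282. Outside the results named, the title-number block changed no call of the 3 genes. With 2 libraries a group in gut, changes below the intervals given could not be resolved, and Il10 in spleen rests on 16 to 86 counts a library.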
